A study of Mus musculus with 6 samples.

Results

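The sequences described here are the R5 library entries that lack G at position 14 of a Gli binding site. They were chosen by sequence alone, as the 7-base entries of the R4-R5 block that begin with AGA and carry A, C or T as the fifth listed base. There are 64 with each of these 3 bases, and the other 64 of the 256 R5 sequences have G there. The block holds 508 sequences, and the 3 deposited tables hold 2094 sequence lines. The 7 listed bases are positions 10 to 16, numbered along the longer sequences of another table of the series. Positions 13, 15 and 16 vary fully among the members, so every combination of bases is present once.

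The values are read counts from 1 binding reaction, titled R4-R6, in which recombinant mouse Gli protein was mixed with a pool of double-stranded DNA and run on a gel. One sample is the DNA that ran with the protein (bound) and the other is the DNA that ran without it (unbound). Each is 1 library with no repeat, so every error below covers read counting only, and no p-value was computed. Reads made by PCR and not tagged by molecule are not independent. The block heading gives no methylation state, and the sample characteristics describe a library named for CTCF, in conflict with the titles and headings, which were followed here.

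Gli proteins are zinc finger transcription factors that carry the Hedgehog signal to target genes. In the known structure of human GLI1 the fingers nearest the C-terminal end make most contacts with the conserved core of the site, and earlier fingers reach over the bases beside it. Positions 10 to 16 lie beside that core. The ratio of bound to unbound reads orders sequences by relative binding within a reaction, with a higher ratio meaning tighter binding, and it is not an affinity in absolute units.

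The sequences on which the comparison turns are printed with the fixed bases in lower case and positions 13 to 16 in capitals. They are the highest member, the highest of those with G at position 13, the lowest member, then 3 that differ from agaTGAA at 13 and 14 or at 14 only. Sequences that keep G at position 14 follow. A substitution gives the base of agaTGAA, the position and the new base. agaTGAA carries the base most often listed at each of positions 13 to 16 in the authors' deposited table of 16-base sequences, which is T at 13 in 883, G at 14 in 1074, A at 15 in 1074 and A at 16 in 1072 of 1266 sequences.
Highest member: agaACAA
Highest of those with G at 13: agaGTTA
Lowest member: agaCATC
T13G with G14T: agaGTAA
G14T alone: agaTTAA
T13C with G14A: agaCAAA
Most often listed bases: agaTGAA
T13G alone: agaGGAA
Highest counterpart: agaCGAA
Lowest counterpart: agaGGGG

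Without G at position 14 binding was weak over most of the set, and no member reached the median of the sequences that keep it. The members had ratios of 0.102 to 0.893 with a median of 0.263, against 0.560 to 4.59 with a median of 1.61 in the 64 R5 sequences with G at position 14. The 2 groups overlapped at their edges only: 8 members lay above agaGGGG, the lowest sequence with G at 14, and 14 of those 64 lay below the highest member. Of these 14 sequences 13 had G at position 13. The median unbound count was 960 in members and 942.5 with G at 14, while the median bound count was 275 and 1481.

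The same spread was read against the pooled ratio of the block, 0.652 bound reads per unbound read. A ratio at least 1.5-fold below it was found in 154 members (80.2%), against 48.6% of all sequences of the block. Shares given for the block include the members. No member lay at least 1.5-fold above it, against 25.4% of the block and 49 of the 64 with G at 14. Only 3 members exceeded the pooled ratio at all, against 33.5% of the block. Beside the 1.5-fold limit, agaGTGT and agaGTCG had 0.683 and 0.669 of the pooled ratio and were not called, while agaGCGT and agaGCGG had 0.652 and 0.640 and were called lower. Their counting standard errors were 0.03 to 0.04 on the natural log scale. All lay within 2 such errors of the limit, so which side each falls on is not resolved.

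The 8 highest members had A or G at position 13. agaACAA had 351 bound and 393 unbound reads, a ratio of 0.893, and agaACAT had 328 and 433 reads, a ratio of 0.758. Both have A at position 13, C at 14 and A at 15. agaGTTA followed with 1128 bound and 1715 unbound reads and a ratio of 0.658, then agaATAA with 353 and 576 reads and 0.613. The next 4 were agaGTTT with a ratio of 0.596, agaGCAA with 0.592, agaGCAT with 0.586 and agaGTAA with 0.583. They lay within their counting standard errors (SE) of 0.04 to 0.05 on the natural log scale. Of the 8 highest members 5 had G at position 13, 3 had A, and none had C or T. No member among the 20 highest had A at position 14.

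The lowest members had C at position 13. agaCATC had 71 bound and 698 unbound reads, a ratio of 0.102. Above it came agaCAAG with 135 bound reads and agaCCCG with 121, then agaCAAC with 60 and agaCAGG with 326, at ratios of 0.120, 0.120, 0.120 and 0.129. All 8 of the lowest had C at position 13, and 5 of them had A at 14. Of the 48 lowest members 29 had C at position 13, 16 had A, 3 had T and none had G. The low bound counts set the precision here, with a counting SE of up to 0.177 for agaCCCC at 36 bound reads.

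Each member bound less than the same sequence with G at position 14, but how much less depended on the base at position 13. With G at 13 the median fall was 1.84-fold (from 1.10-fold to 3.30-fold, n = 48). With T it was 6.38-fold, with A 6.74-fold and with C 11.4-fold (n = 48 each). The falls with G at 13 did not overlap those with any other base, the least of which was 3.54-fold. Falls of at least 1.5-fold and beyond 2 counting SE were counted in 176 members, against 38.8% of all single-base changes from the agaTGAA bases in the R5 library, a background that includes the members. All 16 that missed that mark had G at position 13, where 32 of 48 passed. The largest fall was 31.7-fold, and the smallest, 1.10-fold, was in a sequence with G at 13 and T at 14.

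G at position 13 gave higher binding than the average of the other bases in every context without G at 14. A context is 1 choice of bases at positions 14, 15 and 16, and there are 48 of them. Over these, sequences with G at 13 had a mean log ratio of -0.91, against -1.43 for the average of A, C and T. The median difference was 0.55 ± 0.20 (SD over 48 contexts), or 1.74-fold, with a median counting SE of 0.07 per context. G was higher than that average in 48 of 48 contexts and higher by at least 1.5-fold and 2 counting SE in 35, against 15.5% of all such comparisons over every position and base of the R5 library. Differences ran from 0.07 to 0.93. With T at 14 and A at 15 and 16 the difference was 0.07 ± 0.06 (counting SE). With A at 14 and C at 15 and 16 it was 0.14 ± 0.13, and both were within 2 counting SE of no difference.

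The direction was the opposite where G at 14 was kept. Over those 16 contexts sequences with G at 13 had a mean log ratio of -0.33, against 0.66 for the other bases, and G was lower in 16 of 16. The median difference was -1.03 ± 0.21 (SD), a 2.81-fold fall. The ranges of the difference, 0.07 to 0.93 without G at 14 and -1.25 to -0.58 with it, did not overlap. Sequences with G at 13 also had more reads among members, with a median of 1336 unbound reads, against 880 for C, 633.5 for A and 1104 for T. The part of read number in the difference was not tested.

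C at 13 was lower than the mean of the other bases by at least 1.5-fold and 2 counting SE in 32 of 48 contexts, against 19.0% of such comparisons in the R5 library. G was lower in none, T in none and A in 1. Set against single bases, G at 13 exceeded C and T in all 48 contexts and A in 40. The median difference was 0.83 over C (2.29-fold), 0.48 over A (1.61-fold) and 0.44 over T (1.56-fold). G over C was called in 40 contexts, over T in 29 and over A in 27, against 19.8% of all ordered swaps of 1 base in the R5 library. A over G was called in 1. With A at 14, G was the highest of the 4 bases in all 16 contexts. With T at 14 it was the highest in 15 and A was in 1. With C at 14 it was the highest in 9 and A was in 7.

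Changes at positions 13 and 14 together were less harmful than the sum of each alone when the base gained at 13 was G. The double variant agaGTAA had 653 bound and 1121 unbound reads, a ratio of 0.583. With G14T alone, agaTTAA had 399 and 853 reads and 0.468. With T13G alone, agaGGAA had 2379 and 2115 reads and 1.12. agaTGAA itself had 3292 and 898 reads, a ratio of 3.66. T13G thus changed the log ratio by 0.22 without G at 14 and by -1.18 with it. The double variant lay 1.40 ± 0.09 (counting SE) above the sum of the single changes.

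This pattern held in all contexts of positions 15 and 16. For T13G with G14A, G14C or G14T, the double variant exceeded the additive value by a median of 1.33 (3.80-fold), from 0.68 to 1.69, and was called above it in 48 of 48 cycles. The background is 16.1% of cycles over all pairs of positions in the R5 library, and it includes these 48 cycles. Each cycle is the T13G change without G at 14 minus the T13G change with it. G exceeded T in all 48 contexts without G at 14 and was below T in 16 of 16 with it. A positive sign in every cycle follows from those differences and is not separate support. The 3 cycles of a context share their sequences with G at 14. The medians for G14A, G14C and G14T were 1.24, 1.30 and 1.38, closer than their SDs of 0.31, 0.21 and 0.22.

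C at position 13 did the reverse. T13C changed the log ratio by a median of -0.40 without G at 14 and by 0.24 with it, and the double variant lay below the additive value in 45 of 48 cycles, by a median of -0.65. It was called below in 37, against 9.49% of cycles over all pairs of positions, with these cycles among them. With A at 14 and with C at 14 all 16 were called, and with T at 14 there were 5. For T13A, 6 of 48 cycles were called above the additive value, against a background of 16.1%, and 13 below it, against 9.49%. Their median was -0.20. With A at 14, 9 of 16 were called below and none above. With C at 14, 4 were called above and 3 below, and with T at 14, 2 above and 1 below.

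A at position 13 was the base whose level varied most, with an SD of 0.48 over its 48 members, against 0.40 for C, 0.26 for G and 0.24 for T. After A at 13, the mean log ratio was -1.05 ± 0.56 with C at 14, -1.08 ± 0.27 with T and -1.74 ± 0.13 with A (SD, n = 16 each). The spread with C at 14 lay along position 15. A at 15 gave a mean of -0.43 ± 0.28, T gave -0.73 ± 0.13, G gave -1.31 ± 0.20 and C gave -1.76 ± 0.08 (SD, n = 4 each). Besides agaACAA and agaACAT, with the ratios given above, agaACAG had 430 bound and 780 unbound reads and a ratio of 0.552, and agaACAC had 164 and 336 reads and 0.489. Against the sequences with G at 13 and the same bases at 14 to 16, agaACAA and agaACAT were higher by more than 2 counting SE, and the other two were within counting error. The set was singled out after its values were seen. It spanned 0.489 to 0.893, against 0.205 to 0.658 for the 48 with G at 13 and 0.102 to 0.613 for the other 140.

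Even the highest member stayed below the starting sequence of the substitutions. agaACAA was 4.10-fold below agaTGAA, with a log difference of -1.41 ± 0.08 (counting SE). agaGTTA was 5.57-fold below it and agaCATC 35.8-fold below. Among members with A at both 15 and 16, as in agaTGAA, the log ratios ran from -0.11 in agaACAA to -1.93 in agaCAAA. After agaACAA came agaATAA with a ratio of 0.613, agaGCAA with 0.592, agaGTAA with 0.583 and agaCTAA with 0.551, which lay within 2 counting SE of one another. Then came agaTTAA with 0.468 and agaTCAA with 0.464. Below these came agaGAAA with 0.341, agaCCAA with 0.248, agaTAAA with 0.231, agaAAAA with 0.167 and agaCAAA with 0.145.

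Of the 3 bases that replaced G at position 14, T kept the most binding and A the least. T had a mean log ratio of -1.07, C -1.25 and A -1.57 (n = 64 each). T exceeded A in 64 of 64 matched contexts, by a median of 0.44 (1.55-fold), and was called higher in 36, against 19.8% of all ordered swaps of 1 base in the R5 library. T exceeded C in 47 of 64, by a median of 0.17, which is smaller than its SD of 0.32. After C at position 13, T exceeded C at 14 in all 16 contexts, by a median of 0.47 (1.60-fold), while after A at 13 it did so in 6 of 16.

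The 12 pairs of bases at positions 13 and 14 were then put in order. The pair G then T had the highest mean log ratio, -0.73 ± 0.16, followed by G then C with -0.86 ± 0.23 (SD, n = 16 each). A then C, A then T and G then A lay at -1.05, -1.08 and -1.14. T then T, C then T, T then C and T then A lay at -1.22, -1.24, -1.29 and -1.47. A then A, C then C and C then A were the lowest, at -1.74, -1.78 and -1.95. T then A lay above A then A by more than their SDs of 0.12 and 0.13, and all other neighbours in this order differed by less than the larger of their SDs. The strongest sequences of the pairs not yet given were agaGATA with a ratio of 0.477, agaTCAT with 0.483, agaTATA with 0.297, agaAATG with 0.219 and agaCAGT with 0.168.

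At position 15, A and T went with higher binding than C and G. Against the mean of the other bases, A was higher in 39 of 48 contexts by a median of 0.25 (1.29-fold), and T in 41 by 0.12. C was lower in 40 by a median of -0.27 and G in 37 by -0.12. Rises of at least 1.5-fold beyond 2 counting SE were few, with 12 for A and 3 for T of 48 each. The share for A is 12 of 48, beside the 15.5% background of the R5 library, and that for T is below it. Falls of that size were called for C in 11 and for G in 1, against 19.0% of such comparisons.

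The difference at 15 varied with the bases at 13 and 14. The mean of A and T at 15 exceeded that of C and G by 0.95 ± 0.05 (counting SE) after A at 13 and C at 14, by 0.43 ± 0.04 after T then C, by 0.32 ± 0.03 after G then C and by 0.29 ± 0.05 after C then C. With T at 14 it was 0.58 ± 0.04 after C at 13, 0.39 ± 0.04 after A, 0.28 ± 0.03 after T and 0.18 ± 0.02 after G. With A at 14 it was 0.00 ± 0.06 after A at 13, -0.09 ± 0.05 after C and 0.07 ± 0.04 after T, so no difference beyond 2 counting SE was detectable at this depth, and it was 0.26 ± 0.03 after G. With G at 13 the value was thus higher with A at 14 than with T, but by less than 2 counting SE. At position 16 the same difference was 0.12 ± 0.05 after C then A, 0.08 ± 0.04 after T then A and -0.03 ± 0.06 after A then A. The SDs of the log ratio were 0.13 for A then A, 0.14 for C then A and 0.12 for T then A, against median counting SEs of 0.11, 0.09 and 0.07.

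Position 16 had the smallest differences. A was higher than the mean of the other bases in 42 of 48 contexts by a median of 0.12 (1.13-fold) and T in 37 by 0.09. C was lower in 43 by -0.15 and G in 33 by -0.07. Contexts called higher were 2 for A and 2 for T of 48 each, below the 15.5% background. Those called lower were 1 for C and 1 for G, below the background of 19.0%. The mean of A and T at 16 minus that of C and G was -0.03 to 0.32 over the 12 pairs of bases at 13 and 14 among members, against 0.33 to 0.52 across bases at 13 where G was kept at 14.

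The base at each position alone accounted for 74.5% of the variance of the log ratio over all members. Position 13 held 35.8%, position 14 22.1%, position 15 12.9% and position 16 3.72%. Pairs of positions added 17.8%, of which 13 with 14 held 7.10% and 14 with 15 held 6.23%. Triples added 6.56%, most of it in the triple of 13, 14 and 15 with 4.48%. Counting error was 3.42% of the total variance. Shared out by degrees of freedom, that is 0.196% for the single positions, 0.801% for the pairs and 1.44% for the triples. The triples of other positions held 0.659% to 0.751% each, against 0.320% to 0.480% of counting error.

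The same combinations at positions 13 to 16 also appear in the authors' deposited table of 16-base sequences, whose heading gives no reaction or methylation state. Its deposited ratios were used as they stand, without counts, so no counting error is given. Their read noise is thus not known, and its part in the differences from the R4-R6 reaction was not tested. In the authors' deposited table the members spanned 3.76-fold, from 17.8 to 67.1, against 8.73-fold, from 0.102 to 0.893, in the R4-R6 reaction. Neither ratio is scaled for read depth, so their levels are not compared. Across members the log ratios of the R4-R6 reaction correlated with those of the authors' deposited table at r = -0.03 and rho = -0.02, as a description of sequences that share each table's libraries. Over the 64 sequences with G at 14, the same correlation with the authors' deposited table was r = -0.43 and rho = -0.44. In the authors' deposited table, a share of 83.3% of members lay below their counterparts with G at 14, by a median of -0.25 on the natural log scale.

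G at position 13 was the highest base on average in the authors' deposited table too, but with no reversal by position 14. Without G at 14, sequences with G at 13 had a mean log ratio of 3.68 in the authors' deposited table, against 3.41 for the other bases, and were higher in 45 of 48 contexts. With G at 14 they had 3.90 there, against 3.67, and were higher in 14 of 16 contexts of the authors' deposited table, where the R4-R6 reaction gave a fall in 16 of 16. The ratio of agaACAA was 20.9 in the authors' deposited table and that of agaGCAA was 34.8, the opposite order from the R4-R6 reaction. Other bases were set against the mean of the rest in the same way. A at 15 was lower in 35 of 48 contexts of the authors' deposited table and higher in 39 in the R4-R6 reaction. C at 13 was higher in 31 of 48 contexts of the authors' deposited table and lower in 45 in the R4-R6 reaction. T at 14 was lower in 38 of 64 contexts of the authors' deposited table and higher in 64 in the R4-R6 reaction. A at 16 was lower in 41 of 48 contexts of the authors' deposited table and higher in 42 in the R4-R6 reaction. A at 14 was lower in both, in 52 of 64 contexts of the authors' deposited table and 59 in the R4-R6 reaction. These differences were not tested, since each table is used here without a replicate.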

How the data were processed

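The authors deposited whole-number read counts per sequence for the bound and unbound fractions, and the ratio of those counts, per the file headers. DNA was cut from the gel, extracted and amplified by PCR, per the labels' protocols. The read counting software is not given in the sources used here. The R4-R5 block held 341388 bound and 523242 unbound reads, of which the members held 64332 and 205519. The log ratio is the natural log of bound over unbound after 0.5 was added to each count. Its counting SE is the square root of the summed reciprocal counts. All members passed a minimum of 10 reads in each fraction. A difference was called when it reached 1.5-fold and exceeded 2 counting SE, while a member's ratio against the pooled ratio was called on 1.5-fold alone. Background shares over the block or the R5 library include the sequences or comparisons set beside them. No p-value was computed, since each fraction is 1 library.

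Differences were taken between sequences that match at all other positions. Variance shares came from least squares on the full set of combinations. Named sequences were agaTGAA and its variants at positions 13 and 14, the 8 highest and 5 lowest members, the strongest of each pair of bases at 13 and 14, the extremes with G at 14 and those nearest the 1.5-fold call. The sequence agaCCCC was added after its value was seen. The same holds for agaACAG, and for agaACAC beside it. The members, comparisons and rules were chosen with earlier results of these data known. The calculation was tested on 100 simulated data sets. For the table of 16-base sequences the authors' deposited ratio was used in place of counts, since its columns name no reaction. The table of the R6 reaction was read only to count its sequences. Python 3.11.15, numpy 2.4.6 and pandas 2.3.3 were used.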

Additional observations from a re-analysis of the deposited data

How the results depend on the processing

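Of 21 summary values, 20 kept their direction under each alternative applied to them (a pseudocount of 1, the deposited ratio, no read minimum, a minimum of 100 reads, and for some a 2-fold call, weighting or contexts with no G at 15 or 16). The exception was C at 14 against the other bases, near 0 at -0.0064, which became 0.0119 with a minimum of 100 reads. The counts, the fold range and the variance share among these values have no direction to lose. Dropping the read minimum changed nothing, since all members passed it. A minimum of 100 reads left out 29 members and moved the most values, since it removes sequences with few bound reads. The median log ratio became -1.21, the fold range 7.44, and G at 13 was higher in 31 of the 31 contexts left. The median difference became -0.34 for A at 14, 0.15 for T at 15, 0.17 for A at 16 and -0.11 for G at 16. The effect of G at 13 without G at 14 was 0.53 as a weighted mean and 0.45 in contexts with no G at 15 or 16, against 0.55. No paired analysis was possible because each fraction has 1 library. No replicate could be left out. Depth limits the lowest members most, and no difference has a replicate check.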

Other observations

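Base composition and read number also varied among the members. The mean log ratio was -1.21 in the 16 members with no G or C at positions 13 to 16, and -1.18, -1.31, -1.43 and -1.53 in those with 1, 2, 3 and 4 such bases (n = 56, 72, 40 and 8). G at position 13 counts among these bases yet went with higher ratios. The log of the total reads of a sequence and its log ratio, which share the bound count, had r = 0.40 over all members. Within 1 base at position 13 it was 0.53 for G, 0.34 for A, 0.20 for C and 0.15 for T (n = 48 each). A CpG within the listed bases was present in 28 members. Whether any of them was methylated is not given by the block heading.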
